A study of Homo sapiens with 4 samples.

Results

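The GATA and DLX genes encode 2 families of transcription factors that direct the identity of cell lineages, and 9 of them were followed here through a loss of the chromatin remodeller ARID1A: GATA2, GATA3 and GATA6, and DLX1 to DLX6. They were matched by symbol to the authors' tables, and each was found on 1 row, so the set is 9 of 60766 listed genes. The genes were singled out with the measured difference between these same libraries known, so their values are given as a description and carry no test. RNA came from HCT116, an established human colon carcinoma cell line. The ARID1A knockdown group held 2 libraries of HCT116 cells whose ARID1A was lowered with a short hairpin RNA, and the control group held 2 libraries of HCT116 cells labelled as controls. The labels do not say which hairpin was used, whether the cells were a clone or a pool, what the control cells received, or whether replicates were separate cultures. The p-values below therefore measure the spread between these libraries, which may be technical.

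GATA factors carry zinc fingers that bind DNA at the GATA sequence, and they often open chromatin for other factors. GATA2 is known for blood stem cells, endothelium and trophoblast, GATA3 for T lymphocytes and for luminal breast and urothelial cells, and GATA6 for endoderm, including the intestine. DLX factors are homeodomain proteins of the NK-like class. Their genes lie in the genome as pairs that face each other, DLX1 with DLX2, DLX3 with DLX4 and DLX5 with DLX6, and they pattern the branchial arches, teeth, bone and forebrain. DLX3 also acts in skin and placenta. ARID1A is a subunit of the SWI/SNF complex, which moves nucleosomes at enhancers and promoters.

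The promoter sequences of the members with the largest differences are shown first, with DLX1 as the neighbour that DLX2 is paired with. Each window runs from 250 bases before to 50 bases after a transcript start and comes from RefSeq on GRCh38.p14, read 5′ to 3′ on the strand of the gene. GATA2 has a distal and a proximal start, and both are given. Of the 9 genes, 6 were matched in the RefSeq promoter table, and the 3 others were DLX3, DLX4 and DLX5. Capitals mark matches on either strand. The letters that matched in these windows were CCAAT, a box bound by the factor NF-Y. They were also TGANTCA, a box of AP-1 factors. The last were GGCGCC, a palindrome that SMAD proteins can bind.
GATA2 at the distal start, chr3:128493152-128493451, minus strand: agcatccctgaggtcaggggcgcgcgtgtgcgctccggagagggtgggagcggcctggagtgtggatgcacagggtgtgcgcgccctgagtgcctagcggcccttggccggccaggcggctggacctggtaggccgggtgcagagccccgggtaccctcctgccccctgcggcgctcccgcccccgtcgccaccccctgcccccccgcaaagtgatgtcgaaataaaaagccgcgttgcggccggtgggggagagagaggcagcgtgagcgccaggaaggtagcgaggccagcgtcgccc
GATA2 at the proximal start, chr3:128488481-128488780, minus strand: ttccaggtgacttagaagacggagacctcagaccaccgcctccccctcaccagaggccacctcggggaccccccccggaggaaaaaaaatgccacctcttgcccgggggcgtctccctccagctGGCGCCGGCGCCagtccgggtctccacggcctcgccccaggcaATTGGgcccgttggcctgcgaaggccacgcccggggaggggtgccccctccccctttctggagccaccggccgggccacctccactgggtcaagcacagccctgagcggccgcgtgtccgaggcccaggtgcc
DLX2, chr2:172102851-172103150, minus strand: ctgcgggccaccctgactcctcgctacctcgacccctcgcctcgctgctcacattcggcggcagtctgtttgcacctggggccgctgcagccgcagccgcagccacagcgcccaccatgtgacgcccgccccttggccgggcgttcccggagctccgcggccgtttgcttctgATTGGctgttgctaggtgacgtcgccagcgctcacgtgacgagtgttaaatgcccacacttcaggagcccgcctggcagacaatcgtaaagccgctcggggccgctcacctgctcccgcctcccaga
DLX1, chr2:172085257-172085556, plus strand: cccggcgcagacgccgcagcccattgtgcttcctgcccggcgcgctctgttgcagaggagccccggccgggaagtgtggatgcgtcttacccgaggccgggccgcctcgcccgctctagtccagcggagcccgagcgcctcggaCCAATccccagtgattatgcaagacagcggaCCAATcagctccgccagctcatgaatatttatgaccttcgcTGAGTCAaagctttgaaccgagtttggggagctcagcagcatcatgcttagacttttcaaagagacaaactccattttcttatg

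The searched letters also included AGATAA for GATA factors, TAATTA for homeodomain factors, TATAAA and TGACGTCA, each on both strands, and no searched motif contains another. None of the 12 windows of the 6 matched genes held AGATAA or TAATTA. Of 35116 RefSeq promoter windows of the same length, 10.3% held AGATAA and 4.84% held TAATTA. The distal GATA2 window held no match to any searched motif, and the proximal one held CCAAT 83 bases before the start, with adjacent copies of GGCGCC 126 and 120 bases before it. DLX2 held CCAAT 77 bases before its start. DLX1 held CCAAT at 106 and 75 bases and TGANTCA at 34 bases before its start. CCAAT was found in 34.6%, GGCGCC in 19.2% and TGANTCA in 7.71% of all windows. CG pairs numbered 29 at the distal and 22 at the proximal GATA2 start, 30 at DLX2 and 23 at DLX1, against a median of 14 over all windows. As few or fewer were held by 77.58%, 64.24%, 79.35% and 66.1% of all windows, so these counts are common. The window of DLX6 held 30 and that of GATA6 held 25, so they do not set the printed genes apart. A match is a description of letters and not of a bound site.

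ARID1A itself had 7.05 and 6.13 FPKM (a fragment count scaled by the length of the transcript and the size of the library) in the ARID1A knockdown libraries, against 11.1 and 11.4 FPKM in the control libraries. The knockdown libraries thus held 58.7% of the control level, with a log2 difference of -0.69 (SE 0.0774, adjusted p = 0.00438 by limma with Benjamini-Hochberg adjustment). An exact two-sided permutation test of the 2 against 2 libraries gave p = 0.333, the smallest that this design allows. Differences here and below are of log2(FPKM + 1), knockdown minus control, a scale that understates the change of low genes. Of the 13605 genes with a mean of at least 1 FPKM, 37.1% were called at an adjusted p under 0.05, 18.2% higher and 18.9% lower. That is 5046 genes, and leaving out knockdown library 1 or 2 gave 3259 or 3001 called, and leaving out control library 1 or 2 gave 1900 or 1990. The libraries carried an estimated 76000000 and 74500000 fragments in the knockdown group and 68500000 and 71250000 in the control group. Mitochondrially encoded transcripts took 6.04% and 5.65% of summed FPKM in the knockdown libraries and 4.35% and 4.29% in the control libraries, and their part in any result below was not tested. Of the markers of colon carcinoma epithelium, EPCAM, CDH1, KRT8, KRT18, KRT19 and CDX2 were present in every library, CDX1 was listed at 0 throughout, and VIL1, CEACAM5 and CDH17 stayed at or below 0.207 FPKM. EPCAM had 146.9 and 140.8 FPKM in the knockdown libraries, against 312 and 312 FPKM in the control libraries, and the 10 markers together summed to 4003 and 4160 FPKM in the knockdown libraries, against 3025 and 2920 FPKM in the control libraries.

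Among the GATA genes, GATA2 was the one with the higher level in knockdown cells, and GATA3 and GATA6 were lower. GATA2 had 20.7 and 22.8 FPKM in the knockdown libraries, against 9.10 and 9.45 FPKM in the control libraries. Its lowest knockdown library was more than double its highest control library. The means were 21.8 ± 1.48 FPKM in knockdown and 9.27 ± 0.253 FPKM in control libraries (SD, n = 2 each), a ratio of 2.35 and a log2 difference of 1.15. Of all tested genes, 1.64% had a larger difference in either direction. GATA2 lies on chromosome 3, from 128479427 to 128493201 on GRCh38, on the minus strand.

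GATA3 moved the other way from a low level. It had 1.39 and 1.59 FPKM in the knockdown libraries, against 2.45 and 2.11 FPKM in the control libraries. The groups did not overlap, and the gap between them was wider than the gap within either pair. The means were 1.49 ± 0.141 FPKM in knockdown and 2.28 ± 0.247 FPKM in control libraries (SD, n = 2 each), a ratio of 0.652 and a log2 difference of -0.40. A larger difference was seen in 18.7% of tested genes. Its locus is on chromosome 10, from 8045378 to 8075198.

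GATA6, the member of the family that the intestinal epithelium is known to use, had 2.14 and 1.94 FPKM in the knockdown libraries, against 2.60 and 2.70 FPKM in the control libraries. All values lay within a narrow range and the groups did not overlap. The means were 2.04 ± 0.139 FPKM in knockdown and 2.65 ± 0.0737 FPKM in control libraries (SD, n = 2 each), a ratio of 0.770. The log2 difference was -0.26, and 34.5% of tested genes had a larger one. GATA6 lies on chromosome 18, from 22169392 to 22202528, and 240 of its exonic bases, or 6.08%, are shared with GATA6-AS1 on the opposite strand in GENCODE release 29.

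The remaining GATA genes were near or at 0. GATA1, the factor of red cells and platelets, had 0.103 and 0.103 FPKM in the knockdown libraries, against 0.0342 and 0 FPKM in the control libraries. GATA4, which acts in heart and foregut, had 0 and 0.0174 FPKM in the knockdown libraries, against 0.148 and 0 FPKM in the control libraries. GATA5 was listed at 0 in every library. GATA2 was thus the most abundant GATA transcript per length in both groups.

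**Figure D1:**
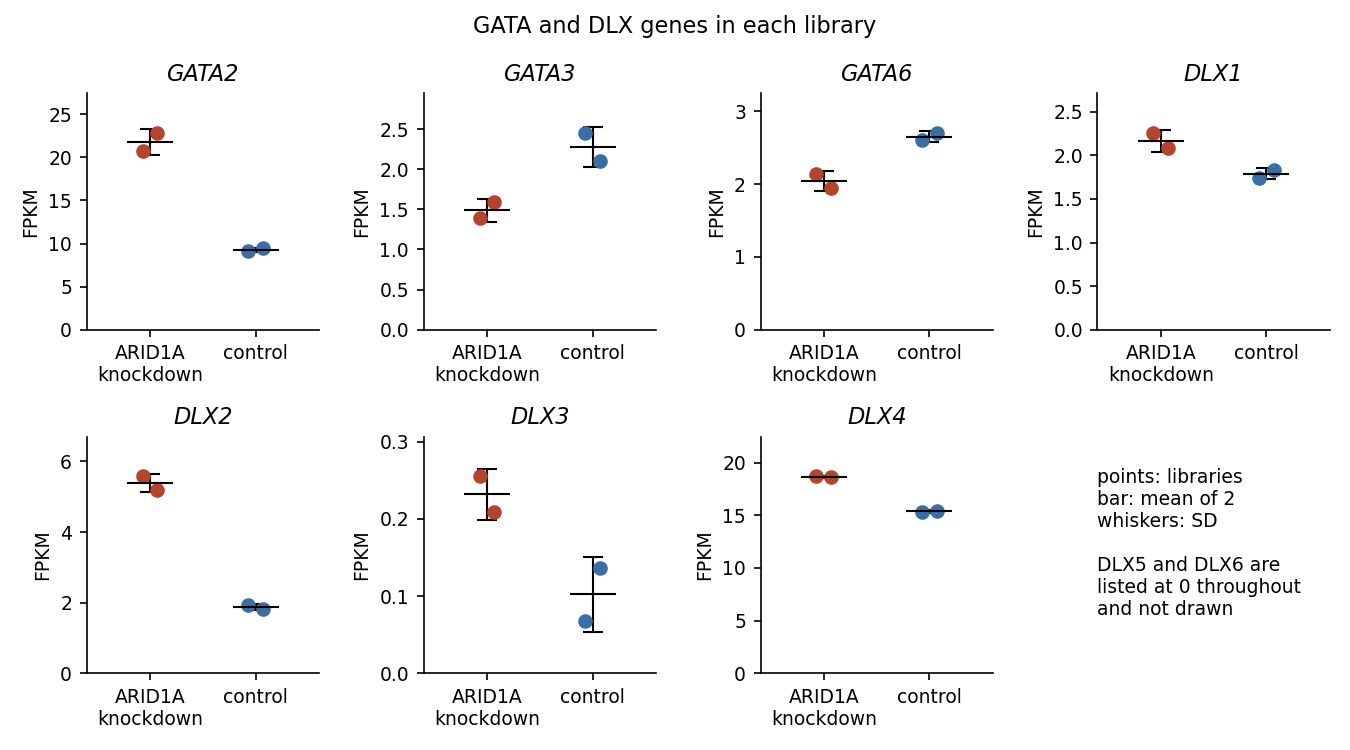
FPKM of 7 GATA and DLX genes in each library, with a separate linear axis from 0 for each gene. Points are libraries, horizontal bars are means of 2 and whiskers are SD, with ARID1A knockdown on the left and control on the right. GATA2, DLX1, DLX2, DLX3 and DLX4 lie higher in both knockdown libraries, and GATA3 and GATA6 lie lower.

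DLX2 had the widest difference of the DLX genes, while DLX1, its partner, differed little. DLX2 had 5.58 and 5.20 FPKM in the knockdown libraries, against 1.93 and 1.82 FPKM in the control libraries. Both knockdown values lay well above both control values. The means were 5.39 ± 0.267 FPKM in knockdown and 1.87 ± 0.0724 FPKM in control libraries (SD, n = 2 each), a ratio of 2.88 and a log2 difference of 1.15. That difference was exceeded by 1.63% of tested genes. From the estimated depths and the annotated transcript lengths, these levels stand for about 613 to 909 fragments in a knockdown library and 203 to 285 in a control library. DLX2 lies on chromosome 2, from 172099438 to 172102900.

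DLX1 had 2.26 and 2.08 FPKM in the knockdown libraries, against 1.75 and 1.83 FPKM in the control libraries. The knockdown values were higher, by a margin that about as many tested genes exceeded as fell short of. The means were 2.17 ± 0.125 FPKM in knockdown and 1.79 ± 0.0621 FPKM in control libraries (SD, n = 2 each), a ratio of 1.21. Its log2 difference was 0.18, and the median size over all tested genes was also 0.18. DLX1 lies next to DLX2 on chromosome 2, from 172084740 to 172089677. The ratio of DLX2 to DLX1 was 2.47 and 2.50 in the knockdown libraries, against 1.10 and 0.994 in the control libraries. DLX2 was above DLX1 in each knockdown library, while in the control libraries the levels of both genes overlapped. Of the windows printed for this pair, both hold CCAAT and the one of DLX1 alone holds TGANTCA.

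DLX4, known from placenta and from several cancers, was the most abundant DLX gene. It had 18.7 and 18.6 FPKM in the knockdown libraries, against 15.3 and 15.4 FPKM in the control libraries. The replicates agreed closely in both groups and did not overlap between them. The means were 18.6 ± 0.0752 FPKM in knockdown and 15.4 ± 0.105 FPKM in control libraries (SD, n = 2 each), a ratio of 1.21 and a log2 difference of 0.26. A larger difference was found in 34.6% of tested genes. The ratio of DLX1 was also 1.21, at a lower level where this log2 scale gives a smaller difference. DLX4 lies on chromosome 17, from 49968970 to 49974959.

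DLX3, the partner of DLX4 on chromosome 17 (49990005 to 49995224), was below the filter. It had 0.255 and 0.209 FPKM in the knockdown libraries, against 0.0677 and 0.137 FPKM in the control libraries. These values stand for an estimated 8.78 to 44.5 fragments in a knockdown library and 2.53 to 22.5 in a control library, depending on the transcript. The means were 0.232 ± 0.0330 FPKM in knockdown and 0.102 ± 0.0487 FPKM in control libraries (SD, n = 2 each), and the 2 control libraries differed from each other about as much as the nearest libraries of the groups.

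DLX5 (chromosome 7, 97020396 to 97024950) and DLX6 (chromosome 7, 97005553 to 97011040) were listed at 0 in all 4 libraries. For the longest annotated coding transcript, a single fragment would stand for at least about 0.0114 FPKM of DLX5 and 0.00647 FPKM of DLX6. For a shorter transcript it would stand for more. Both genes of this pair were thus unread, while each gene of the other pairs was read in every library.

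Of the 9 genes, 6 passed the filter of a mean of 1 FPKM, and 3 did not. Of all 9, 5 were higher and 2 were lower in each knockdown library than in each control library, and DLX5 and DLX6 were at 0. Groups did not overlap for 72.3% of all tested genes, and since the set was chosen on this contrast nothing is read from its count. In bulk RNA, a different number of cells that express a gene and a different amount of RNA per cell cannot be told apart.

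**Figure D2:**
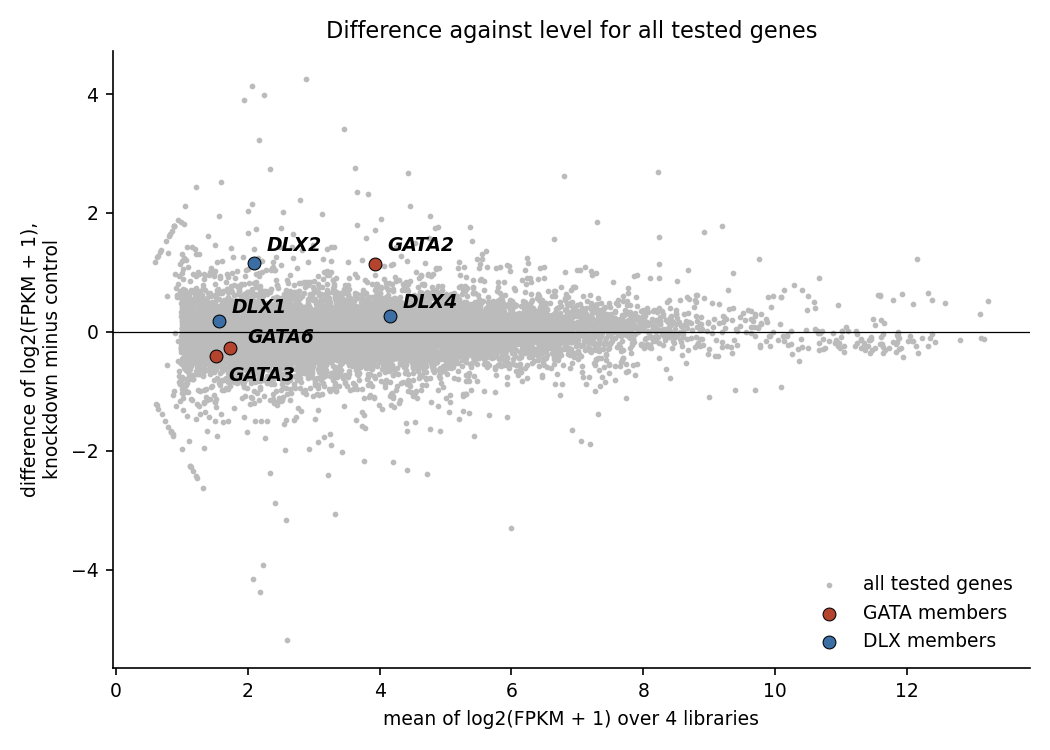
Difference of log2(FPKM + 1), knockdown minus control, against the mean log2(FPKM + 1) over 4 libraries, for the 13605 tested genes in grey and the 6 GATA and DLX genes past the filter in colour. GATA2 and DLX2 lie at 1.15 above the bulk of the genes, and DLX1, DLX4, GATA3 and GATA6 lie within it.

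Shares within each family restate the levels given above, on which the members were chosen, and are a description. The share of the gene with the widest difference was larger in the knockdown libraries, as follows from its ratio. FPKM is scaled by length, so comparing levels between genes depends on the transcripts assumed and is approximate. Annotated coding transcripts run from 563 to 3367 bases for GATA2 and from 748 to 3123 bases for GATA3. GATA2 made up 85.5% and 86.6% of the summed FPKM of GATA2, GATA3 and GATA6 in the knockdown libraries, against 64.3% and 66.3% in the control libraries. GATA3 took 5.71% and 6.02% in the knockdown libraries, against 17.3% and 14.8% in the control libraries. The share of GATA6 was 8.82% and 7.37% in the knockdown libraries, against 18.4% and 18.9% in the control libraries. The sum itself was 24.3 and 26.4 FPKM in the knockdown libraries, against 14.1 and 14.3 FPKM in the control libraries. Within the DLX sum, DLX2 took 20.8% and 19.9% in the knockdown libraries, against 10.1% and 9.48% in the control libraries. DLX4 was the largest share, with 69.8% and 71.3% in the knockdown libraries, against 80.3% and 80.3% in the control libraries. The DLX sum was 26.8 and 26.1 FPKM in the knockdown libraries, against 19.0 and 19.2 FPKM in the control libraries.

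**Figure D3:**
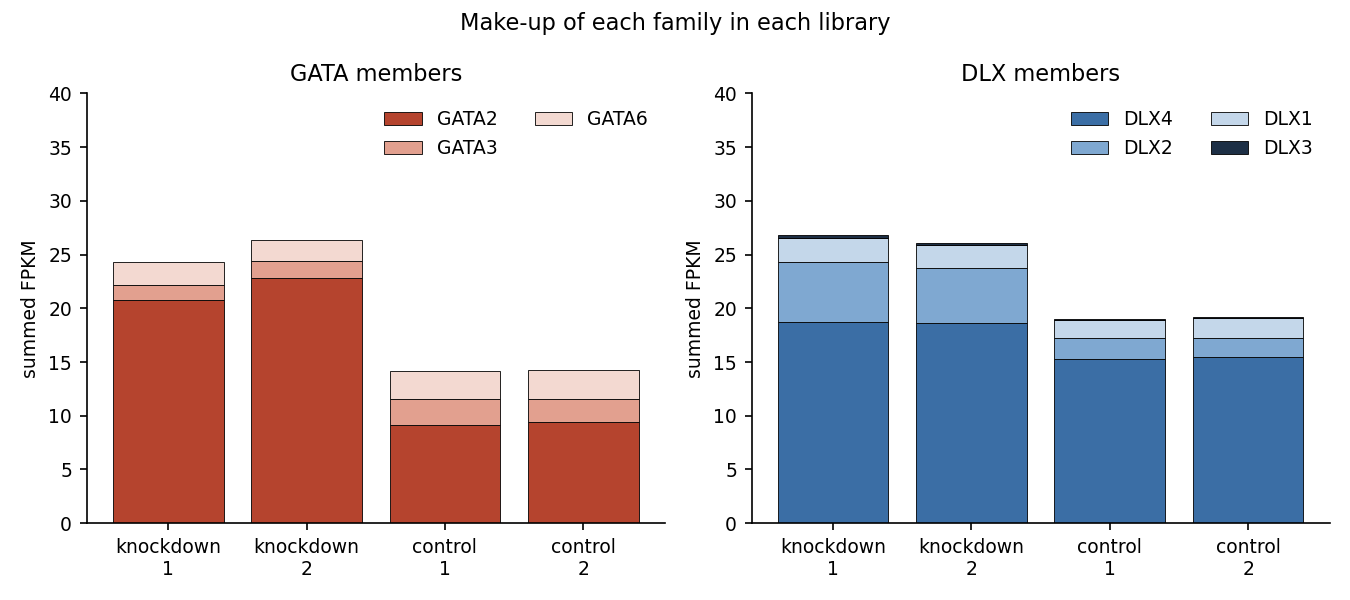
Summed FPKM of the GATA genes (left) and of the DLX genes (right) in each library, stacked by gene on a linear axis from 0. The GATA2 block fills 85.5% and 86.6% of the knockdown bars and 64.3% and 66.3% of the control bars, and DLX4 fills most of each DLX bar.

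The order of levels also differed between the groups. In knockdown cells it ran GATA2, DLX4, DLX2, DLX1, GATA6, GATA3, DLX3, with DLX5 and DLX6 at 0. In control cells it ran DLX4, GATA2, GATA6, GATA3, DLX2, DLX1, DLX3, again with DLX5 and DLX6 at 0. The only neighbours among the detected genes whose libraries overlapped were DLX1 and GATA6 in knockdown cells and DLX2 and DLX1 in control cells. GATA2 and DLX4 exchanged the top places, and DLX2 stood 2 places higher in knockdown cells than in control cells.

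The question of whether neighbouring genes moved with the members was addressed by the 37 other features within 100 kb of a member. Of these, 8 were tested, 1 rose, 2 fell and 5 were not called, against 37.1% called among all tested genes. The other 29 were below the filter, with a highest mean of 0.411 FPKM, and 14 were at 0 throughout.

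GATA2-AS1, an antisense transcript that starts inside the GATA2 locus on the opposite strand, had 15.7 and 14.8 FPKM in the knockdown libraries, against 11.8 and 13.1 FPKM in the control libraries. It rose with a log2 difference of 0.27 (SE 0.0687, adjusted p = 0.0366 by limma). The call was lost on leaving out any 1 of the 4 libraries, with adjusted p from 0.0663 (without control library 2) to 0.142 (without control library 1), and at 0.0669 with the replicate number as a block. Over all alternatives its adjusted p ranged from 0.0287 to 0.142. The ratio of GATA2 to GATA2-AS1 was 1.32 and 1.55 in the knockdown libraries, against 0.768 and 0.721 in the control libraries. The exons of GATA2 and GATA2-AS1 share 0 bases in GENCODE release 29. The loci overlap, and no source used here says that the libraries kept strand, so unspliced RNA of these genes cannot be told apart.

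On the other side of GATA2, EEFSEC, the elongation factor for selenocysteine, had 10.3 and 10.7 FPKM in the knockdown libraries, against 13.3 and 13.0 FPKM in the control libraries. It fell by 0.29 on the log2 scale (adjusted p = 0.0130 by limma), and the call was lost without knockdown library 1, control library 1 or control library 2 (adjusted p from 0.0592 to 0.0786, and from 0.0103 to 0.0786 over all alternatives). ITGA3, the integrin alpha 3 gene near DLX3 and DLX4, had 86.3 and 85.8 FPKM in the knockdown libraries, against 114.6 and 114.4 FPKM in the control libraries. It fell by 0.41 on the log2 scale (SE 0.0324, adjusted p = 0.00191 by limma), opposite in sign to the differences of DLX3 and DLX4, and stayed called without any 1 library.

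The 5 tested neighbours that were not called were SLC25A12 and METAP1D beside DLX1, TAF3 beside GATA3, PDK2 near DLX3 and SDHAF3 near DLX5. Their log2 differences were 0.31, 0.02, 0.14, 0.22 and 0.46, with adjusted p by limma of 0.108, 0.946, 0.236, 0.156 and 0.0749. SLC25A12 and PDK2 passed when control library 1 was left out (adjusted p = 0.0412 and 0.0398), and SDHAF3 passed without knockdown library 1 (0.0392), and their adjusted p reached 0.289, 0.385 and 0.278 under other alternatives. METAP1D lies 2310 bases from DLX1, and it had 14.2 and 9.69 FPKM in the knockdown libraries, against 10.6 and 12.7 FPKM in the control libraries. Of the transcripts named after a member, GATA6-AS1 had 0.225 and 0.262 FPKM in the knockdown libraries, against 0.233 and 0.172 FPKM in the control libraries. GATA3-AS1 was at 0 throughout, DLX2-DT was read in control library 2 only (0.0209 FPKM) and DLX6-AS1 in knockdown library 2 only (0.00543 FPKM).

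**Figure D4:**
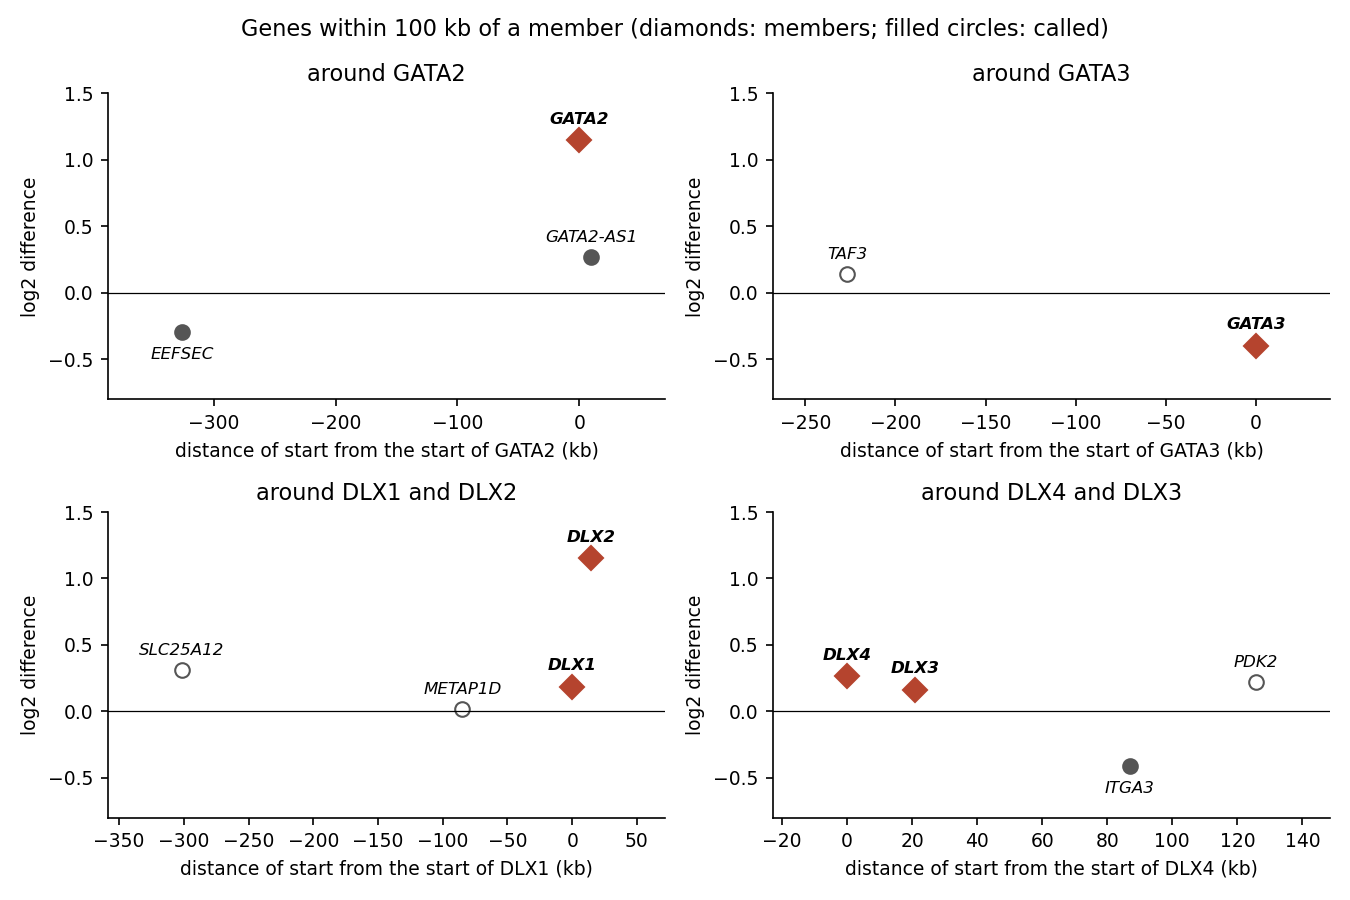
Difference of log2(FPKM + 1), knockdown minus control, against the distance in kb from the start of a member, for members (diamonds) and tested genes within 100 kb (filled circles: called; open circles: not called). GATA2 and DLX2 at 1.15 stand above each tested neighbour drawn, of which GATA2-AS1 at 0.27 is the one called higher, and SDHAF3 near DLX5 is not drawn.

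Sequence shared between genes was counted in the annotated transcripts of GENCODE release 29. No stretch of 50 bases was shared between any pair of members. GATA6 shared 11.9% of its stretches with transcripts of the opposite strand, and DLX6 shared 0.284% with other genes. The other 7 members shared none.

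The genes whose pattern over the 4 libraries was closest to a member were found by Euclidean distance on log2(FPKM + 1) centred per gene, as a description of 4 libraries. Nearest to GATA2 were IRF7, ZNF488 and OVOL1, at distances of 0.0533 to 0.0598. IRF7 had 29.9 and 32.7 FPKM in the knockdown libraries, against 12.7 and 13.5 FPKM in the control libraries. Nearest to DLX2 were NECTIN3, STN1 and CAV2, at 0.0189 to 0.0541. NECTIN3 had 68.9 and 64.9 FPKM in the knockdown libraries, against 30.6 and 29.3 FPKM in the control libraries. GATA2 and DLX2 each had 9 tested genes within a distance of 0.1. The 4 members with smaller differences had many more. GATA3 had 135, led by ZNF618, TESC and CHRD, and GATA6 had 596, led by RABGGTB, SFPQ and UBXN2B. DLX1 had 878, led by MRPS11, CLPP and CDK5, and DLX4 had 941, among them ARHGEF34P and MAP3K21.

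Lists of genes that work with the members were chosen with earlier results of these data known, and some share genes. Each is read against all tested genes, whose median log2 difference was -0.0030 with 37.1% called. Of 8 other genes with GATA-type zinc fingers, 4 were tested, of which 1 rose, 1 fell and 2 were not called, and the median was 0.07. GATAD2A, a subunit of the NuRD complex, had 62.9 and 65.0 FPKM in the knockdown libraries, against 50.1 and 46.9 FPKM in the control libraries, and rose by 0.39 on the log2 scale (adjusted p = 0.00531 by limma). GATAD1 had 11.2 and 11.1 FPKM in the knockdown libraries, against 13.3 and 14.8 FPKM in the control libraries, and fell by 0.31 (adjusted p = 0.0225). Its call was lost without either knockdown library (0.0784 and 0.0910) and without control library 2 (0.0921), and the list then held 1 call. Over all alternatives its adjusted p ranged from 0.0172 to 0.0921. TRPS1, an atypical GATA repressor, was at 0 in each library.

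Of 13 partners and cofactors of GATA factors, 8 were tested, and 1 rose, 3 fell and 4 were not called, with a median of 0.0029. LMO2, the bridging protein that joins GATA factors with LDB1 and TAL1 in blood cells, had 3.85 and 3.55 FPKM in the knockdown libraries, against 7.92 and 6.69 FPKM in the control libraries. It fell by 0.82 on the log2 scale (SE 0.0966, adjusted p = 0.00502 by limma). LMO4, of the same family, had 18.4 and 18.3 FPKM in the knockdown libraries, against 25.5 and 24.5 FPKM in the control libraries, and fell by 0.43 (adjusted p = 0.00365). RUNX1, which acts with GATA2 in blood stem cells, had 6.69 and 6.15 FPKM in the knockdown libraries, against 9.03 and 8.75 FPKM in the control libraries, and fell by 0.42 (adjusted p = 0.0102). Its call was lost without knockdown library 2 (0.0504), control library 1 (0.0684) or control library 2 (0.0602), and the list then held 2 calls in each case. Its adjusted p ranged from 0.00818 to 0.0684 over all alternatives. The gene that rose was TCF3, outside the rule for named genes, with a log2 difference of 0.18 (adjusted p = 0.0183 by limma). It had 88.0 and 89.2 FPKM in the knockdown libraries, against 79.0 and 77.5 FPKM in the control libraries. The call of TCF3 was lost without knockdown library 2, control library 1 or control library 2 (log2 differences of 0.17, 0.19 and 0.16). Without a trend of variance on level, 0 genes of the list were called higher. LDB1 was not called (adjusted p = 0.370 by limma), and TAL1 was read in knockdown library 2 only (0.00914 FPKM). FOXA1, a pioneer factor that works with GATA3, was below the filter, with 0.427 and 0.392 FPKM in the knockdown libraries, against 0.754 and 1.01 FPKM in the control libraries.

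Of 33 other homeobox genes of the NK-like class, 10 were tested, and 3 rose and 0 fell by limma, with a median of -0.12. At an unadjusted p under 0.05, 3 were higher and 2 lower. Without a trend of variance on level, 3 were called lower as well, namely NKX3-2, NKX6-1 and TLX3. MSX2, the closest in kind to DLX genes with MSX1, had 25.3 and 27.9 FPKM in the knockdown libraries, against 7.55 and 7.21 FPKM in the control libraries. It rose by 1.72 on the log2 scale (SE 0.0655, adjusted p = 0.000385), more than any DLX member differed. MSX1 had 250.2 and 263 FPKM in the knockdown libraries, against 178.1 and 177.9 FPKM in the control libraries, and rose by 0.53 (adjusted p = 0.00162). NKX1-2 rose by 0.39 (adjusted p = 0.0192), a call lost on leaving out any 1 library (0.0592 to 0.0908), and its adjusted p ranged from 0.0140 to 0.0908 over all alternatives.

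BMP signalling is a known inducer of DLX, MSX and GATA genes in the embryo. Of 27 genes of the pathway, 20 were tested, and 4 rose, 6 fell and 10 were not called, with a median of -0.06. The ligand BMP4 had 295 and 298 FPKM in the knockdown libraries, against 82.1 and 81.9 FPKM in the control libraries, and rose by 1.84 on the log2 scale (SE 0.0316, adjusted p = 0.000167 by limma). The targets ID3 and ID2, inhibitors of basic helix-loop-helix factors, rose by 1.68 and 1.59 (adjusted p = 0.000320 each). ID3 had 834 and 905 FPKM in the knockdown libraries, against 274 and 265 FPKM in the control libraries. ID1, outside the rule for named genes, rose by 0.36 (adjusted p = 0.00640 by limma), a call lost without either control library. SMAD6, SMAD7 and BAMBI of the same list were not called (log2 differences of 0.31, -0.13 and -0.19). The 6 genes called lower, 5 of which lie outside the rule for named genes and are listed so that each direction is shown, held both carriers and inhibitors of the signal. The shared transducer SMAD4 had 33.8 and 33.1 FPKM in the knockdown libraries, against 43.5 and 43.9 FPKM in the control libraries, and fell by 0.38 (adjusted p = 0.00337). The receptor ACVR1 had 6.95 and 6.53 FPKM in the knockdown libraries, against 9.86 and 9.86 FPKM in the control libraries, and fell by 0.49 (adjusted p = 0.00505). The transducer SMAD5 fell by 0.31 (adjusted p = 0.0205), a call lost without knockdown library 1 (0.0755), control library 1 (0.103) or control library 2 (0.0615). Of the genes that restrain or bind the signal, the ubiquitin ligase SMURF2 fell by 0.76 (adjusted p = 0.00101), to 47.2 and 44.8 FPKM in the knockdown libraries, against 77.1 and 79.9 FPKM in the control libraries. TWSG1, a secreted BMP-binding protein, fell by 0.57 (adjusted p = 0.00270), and the antagonist CHRD by 0.43 (adjusted p = 0.0213), a call lost on leaving out any 1 library (0.0522 to 0.102).

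Of 27 genes of trophoblast and surface ectoderm, where GATA2, GATA3, DLX3 and DLX4 are used, 13 were tested, and 6 rose, 2 fell and 5 were not called, with a median of 0.22. GRHL3, a factor of surface epithelia, had 17.9 and 18.0 FPKM in the knockdown libraries, against 0.224 and 0.171 FPKM in the control libraries, and rose by 3.98 on the log2 scale (adjusted p = 0.000167 by limma). It passed the filter only through the knockdown libraries. The keratins KRT8 and KRT7 rose by 0.70 and 0.66 (adjusted p = 0.000768 and 0.00154). KRT8, KRT18 and KRT19 are also expressed in colon epithelium. The 2 genes called lower, EPAS1 and TFAP2A, lie outside the rule for named genes and are given so that each direction is shown. EPAS1 had 11.5 and 11.5 FPKM in the knockdown libraries, against 17.1 and 16.4 FPKM in the control libraries. The log2 differences were -0.51 for EPAS1 and -0.28 for TFAP2A (adjusted p = 0.00295 and 0.0362 by limma). The call of TFAP2A was lost on leaving out any single library, with log2 differences from -0.35 to -0.22. EPAS1 stayed called in each of these fits. The markers that define trophoblast itself were at or near 0. Their sum over 8 genes was 0.729 and 0.690 FPKM in the knockdown libraries, against 0.561 and 0.447 FPKM in the control libraries, and CGA and ERVFRD-1 were at 0 throughout.

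Of 21 luminal and urothelial genes that are used with GATA3, 10 were tested, and 7 rose, 1 fell and 2 were not called, with a median of 0.88. GATA3 itself was lower in knockdown cells, as given above. The uroplakins UPK3B and UPK2, membrane plaque proteins of the bladder lining, rose by 3.23 and 2.53 on the log2 scale (adjusted p = 0.000318 and 0.000489 by limma). UPK3B had 11.96 and 13.6 FPKM in the knockdown libraries, against 0.436 and 0.492 FPKM in the control libraries. Both genes passed the filter only through the knockdown libraries, with control means of 0.464 FPKM for UPK3B and 0.260 FPKM for UPK2. The other 3 uroplakins of the list were below the filter and untested. UPK3A lay the other way, with 0.0382 and 0.0339 FPKM in the knockdown libraries, against 0.470 and 0.246 FPKM in the control libraries. UPK1A had 0.992 and 0.998 FPKM in the knockdown libraries, against 0.763 and 0.832 FPKM in the control libraries, and UPK1B was at or below 0.0195 FPKM in every library. KRT20, a keratin of superficial urothelial and intestinal cells, had 14.3 and 13.5 FPKM in the knockdown libraries, against 2.01 and 2.42 FPKM in the control libraries, and rose by 2.22 (adjusted p = 0.000395). The gene called lower, XBP1, lies outside the rule for named genes and is given so that each direction is shown. It had 70.7 and 64.2 FPKM in the knockdown libraries, against 80.0 and 93.3 FPKM in the control libraries. It fell by 0.35 (adjusted p = 0.0369 by limma), and its call was lost without either knockdown library or without control library 2. ELF3 and MUC1 were not called (log2 differences of -0.05 and 0.13). With the filter at 0.1 FPKM the median of the list was 0.36, and with no filter 0.07.

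Of 26 intestinal endoderm genes that are used with GATA6, 10 were tested, and 4 rose, 3 fell and 3 were not called, with a median of -0.01. KLF5, a factor of crypt cells, had 70.5 and 71.5 FPKM in the knockdown libraries, against 33.2 and 32.6 FPKM in the control libraries, and rose by 1.09 (adjusted p = 0.000363 by limma). SOX9, a factor of intestinal stem and Paneth cells, had 36.3 and 37.8 FPKM in the knockdown libraries, against 76.6 and 74.2 FPKM in the control libraries, and fell by 1.01 (adjusted p = 0.000441). CDX2, the caudal homeobox factor of the intestine, had 13.1 and 10.9 FPKM in the knockdown libraries, against 11.8 and 14.8 FPKM in the control libraries, and was not called (adjusted p = 0.465). Without control library 1 the list held 4 calls in place of 7.

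Of 26 genes of bone, tooth, branchial arch and forebrain that are used with DLX factors, 6 were tested, and 0 rose, 4 fell and 2 were not called by limma, with a median of -0.41. At an unadjusted p under 0.05, 0 were higher and 5 lower. The endothelin receptor EDNRA, which acts in the branchial arches, had 1.24 and 1.12 FPKM in the knockdown libraries, against 2.57 and 2.11 FPKM in the control libraries, and fell by 0.61 on the log2 scale (SE 0.116, adjusted p = 0.0173). EDNRA lost its call without knockdown library 1 (0.0508), knockdown library 2 (0.0642) or control library 1 (0.0769), and its adjusted p ranged from 0.0145 to 0.0769 over all alternatives. The list held 2 calls without knockdown library 1 or control library 2, and 1 without knockdown library 2 or control library 1. The GABA enzyme GAD1 was not called (adjusted p = 0.0941). With the filter at 0.1 FPKM, 2 genes were called higher and 4 lower, and those called higher were the arch ligands FGF8 and SHH, named after their values were seen. FGF8 had 0.949 and 0.922 FPKM in the knockdown libraries, against 0.370 and 0.388 FPKM in the control libraries. SHH had 1.14 and 1.40 FPKM in the knockdown libraries, against 0.404 and 0.415 FPKM in the control libraries.

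**Figure D5:**
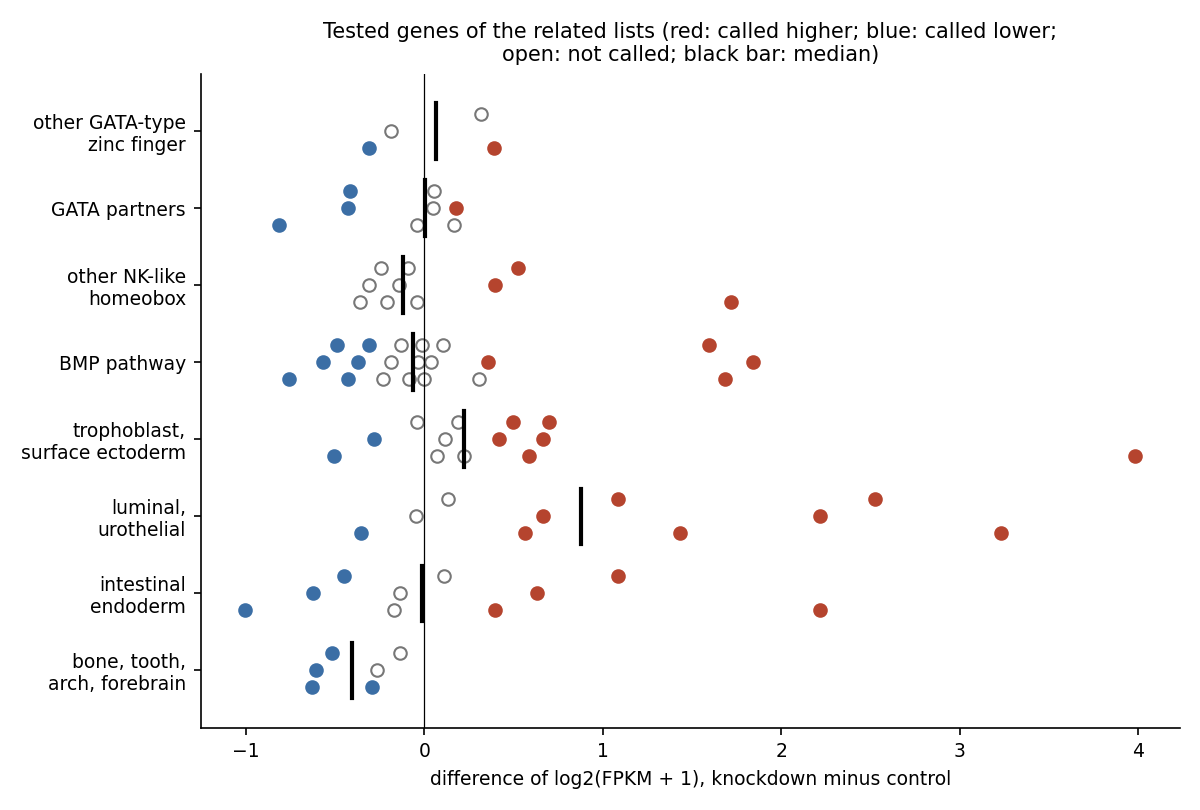
Difference of log2(FPKM + 1), knockdown minus control, for each tested gene of 8 related lists, 1 list a row. Red points were called higher, blue points lower, open points were not called, and the black bar is the median, which is 0.88 for the luminal and urothelial list and -0.41 for the bone, tooth, arch and forebrain list.

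Markers of other cells that use GATA or DLX genes were looked at over whole lists. The sum of 12 leukocyte and blood markers was 4.82 and 4.49 FPKM in the knockdown libraries, against 7.42 and 6.28 FPKM in the control libraries, most of it CD68. CD3D, CD3E, MS4A1 and TYROBP were at 0 in every library. The sum of 7 fibroblast markers was 6.15 and 6.43 FPKM in the knockdown libraries, against 5.02 and 3.77 FPKM in the control libraries, most of it COL1A1. The 5 endothelial markers summed to 0.203 and 0.163 FPKM in the knockdown libraries, against 0.267 and 0.325 FPKM in the control libraries. The 6 neuronal markers summed to 28.8 and 28.4 FPKM in the knockdown libraries, against 58.5 and 52.6 FPKM in the control libraries, most of it SYT1, with GAD2 at 0.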

How the data were processed

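Libraries of HCT116 RNA, 2 of ARID1A knockdown and 2 of control cells, were prepared with the NEBNext Ultra chemistry, per the labels' protocols. For each library the authors deposited FPKM values by gene, and STAR, Cufflinks and GRCh38 are named in the submitters' processing notes. Of tool versions, annotation release and strand setting, nothing is given in the sources used here. Each table held 60811 rows, of which 45 second copies of pseudoautosomal genes were dropped, and values under 1e-09 were set to 0. Files give loci with a start 1 base lower than printed here.

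FPKM values are not counts, so limma 3.58.1 (R 4.3.3) was run on log2(FPKM + 1), using eBayes with a trend and a prior of 2.79 degrees of freedom. Genes with a mean of at least 1 FPKM were tested, and a call is a p under 0.05 after Benjamini-Hochberg adjustment over all of them. The fit was also run on simulated data with independent noise and few changed genes. With 37.1% of tested genes called here, that setting differs from these data, so nothing is read from it. Depth was estimated from genes with 1 transcript of at least 1500 bases. For each library, the total and fragment length were chosen to make the largest share of values up to 8 fragments whole within 0.1. At the totals given, 83.5% to 86.3% were whole, against 21.2% to 23.8% after scrambling the lengths. Scrambled lengths were scored only at the chosen settings, without a search of their own, so these shares are not a like comparison. With these totals, replicates differed by a chi-square per gene of 3.47 between the knockdown and 3.85 between the control libraries, more than sampling noise.

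The members and lists were chosen with earlier results of these data known. Named genes were all members, ARID1A, up to 3 called genes of each list by size of difference, named antisense or divergent transcripts and tested genes within 100 kb of a member, and the 3 nearest patterns to each member past the filter. Some genes that this rule names are not reported here. Alternatives were pseudocounts of 0.1 and 0.5, filters at 0.1 and 5 FPKM and none, median centring, quantile normalization, no trend, leaving out each library, and the replicate number as a block. Exon overlap and transcript lengths came from GENCODE release 29, and promoters from RefSeq on GRCh38.p14.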

Additional observations from a re-analysis of the deposited data

How the results depend on the processing

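No difference of a member changed sign under the alternatives run, but most of them could not change it. The groups of each detected member did not overlap, so leaving out a library or changing the pseudocount keeps the sign. Filters, the trend and the block leave the difference itself as it was. Nothing is therefore read from the lack of sign changes. GATA2 ranged from 1.08 to 1.22 on the log2 scale, DLX2 from 1.11 to 1.47, DLX4 from 0.26 to 0.28, DLX1 from 0.14 to 0.26, GATA3 from -0.58 to -0.32 and GATA6 from -0.36 to -0.20. Without a filter 2786 genes were called, and 1 of the other genes with GATA-type zinc fingers. With a filter at 5 FPKM, 0 genes of the bone, tooth, arch and forebrain list were called, since none of its called genes is above it. Without a trend 6 of the other NK-like homeobox genes were called. Leaving out 1 library, where the lone sample of a group is assumed to vary like the other group, gave 1900 to 3259 called genes in all. It gave 1 to 2 calls among the other GATA-type genes, 2 to 4 among GATA partners, 4 to 6 among intestinal genes, 1 to 2 in the bone, tooth, arch and forebrain list and 1 to 3 beside the members. ARID1A stayed called, at -0.78 to -0.60. With the replicate block 4126 genes were called. Same-numbered libraries did not deviate together (r = -0.00993 across genes, which are not independent), and with 2 pairs the numbers are not shown to pair. The block ended the call of GATA2-AS1 (adjusted p = 0.0669). With 2 libraries a group, no single-gene permutation test can pass 0.05. DLX3 rests on few fragments.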
